A study of Rattus norvegicus with 6 samples.

Results

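The accessible chromatin sites (ACS) nearest to 8 genes were compared between adult and 10-day-old (P10) rat islets. These were *Scrt1* and *Scrt2* of the Scratch family, *Snai1* and *Snai2* of the Snail family, *Zeb1* and *Zeb2*, the adhesion gene *Cdh1* and the bHLH gene *Twist1*. Every ACS whose nearest gene in the deposited Rn5 annotation carried one of these symbols was taken, which gave 57 of 101603 distinct ACS and 8 of the 14776 genes to which an ACS was assigned. Chromatin was profiled by ATAC-seq, in which the transposase Tn5 inserts adapters into open DNA, and each value is a count of integrations per ACS and library. Dissociated islet cells of Sprague-Dawley rats gave 6 libraries, 3 from single adult males (adult replicates 4, 5 and 6) and 3 from litters of male and female pups at P10 (P10 replicates 1, 2 and 3). Age, sex and single animals against litters therefore cannot be told apart. The ACS held 11903909, 10319487 and 7916919 integrations in adult replicates 4, 5 and 6, and 21168463, 13491534 and 18108935 in P10 replicates 1, 2 and 3, so that the adult libraries held fewer within ACS. Relative to the total reads the study lists for each library, too, every adult library held fewer integrations within ACS than every P10 library. Islets are mixed tissue, and a change in the share of a cell type cannot be told apart from a change of chromatin within a cell type.

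Scratch and Snail proteins are zinc finger repressors that share an N-terminal SNAG domain, through which they recruit corepressors, and their zinc fingers bind E-box DNA. ZEB proteins are larger repressors with separate clusters of zinc fingers, and they bind related E-boxes. Snail, ZEB and Twist factors are known for repressing the epithelial adhesion gene *Cdh1* during epithelial-mesenchymal transition, whereas Scratch factors are known mainly from neurons and endocrine cells.

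Values are given as CPM (integrations in an ACS per 1000000 in all ACS of a library, after TMM scaling), and fold changes are log2 values of adult over P10 with their standard error (SE). An ACS was called Up (higher in adult islets) or Down (lower) at an unadjusted p under 0.05 and a Benjamini-Hochberg adjusted p (FDR) under 0.2 in edgeR's quasi-likelihood test over all ACS. Of the 57 ACS, 11 were called Up and 5 Down, that is 19.3% and 8.77%, where over all ACS 12.3% were called Up and 6.63% Down. The median log2 fold change of the 57 ACS was 0.05, against -0.01 over all ACS. Without P10 replicate 1 the median was -0.01 for both. With column sums without TMM it was -0.04 for the 57 and -0.10 over all ACS, and with total reads as library sizes -0.79 and -0.84. In 21 of the 57 ACS (36.8%) the 3 adult libraries did not overlap the 3 P10 libraries, where this held for 24.7% of all ACS. These shares describe genes chosen with earlier results known and set nothing apart about them. Of the 16 called ACS, 7 were called in the same direction whichever of the 6 libraries was left out. Without P10 replicate 2 the Up calls numbered 6 among the 57 and 7973 over all ACS, against 11 and 12504 with all libraries. With the total reads per library as library sizes, in place of the integrations within ACS, 1 was called Up (the *Snai2* ACS 60737 bp downstream of the start) and 30 Down, among them the same 5, and over all ACS 1062 Up and 61663 Down. Over all ACS the share of Up among the calls was 65.0%, against 54.9% with cyclic loess scaling, 49.3% with column sums without TMM and 1.69% with total reads.

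**Figure D1:**
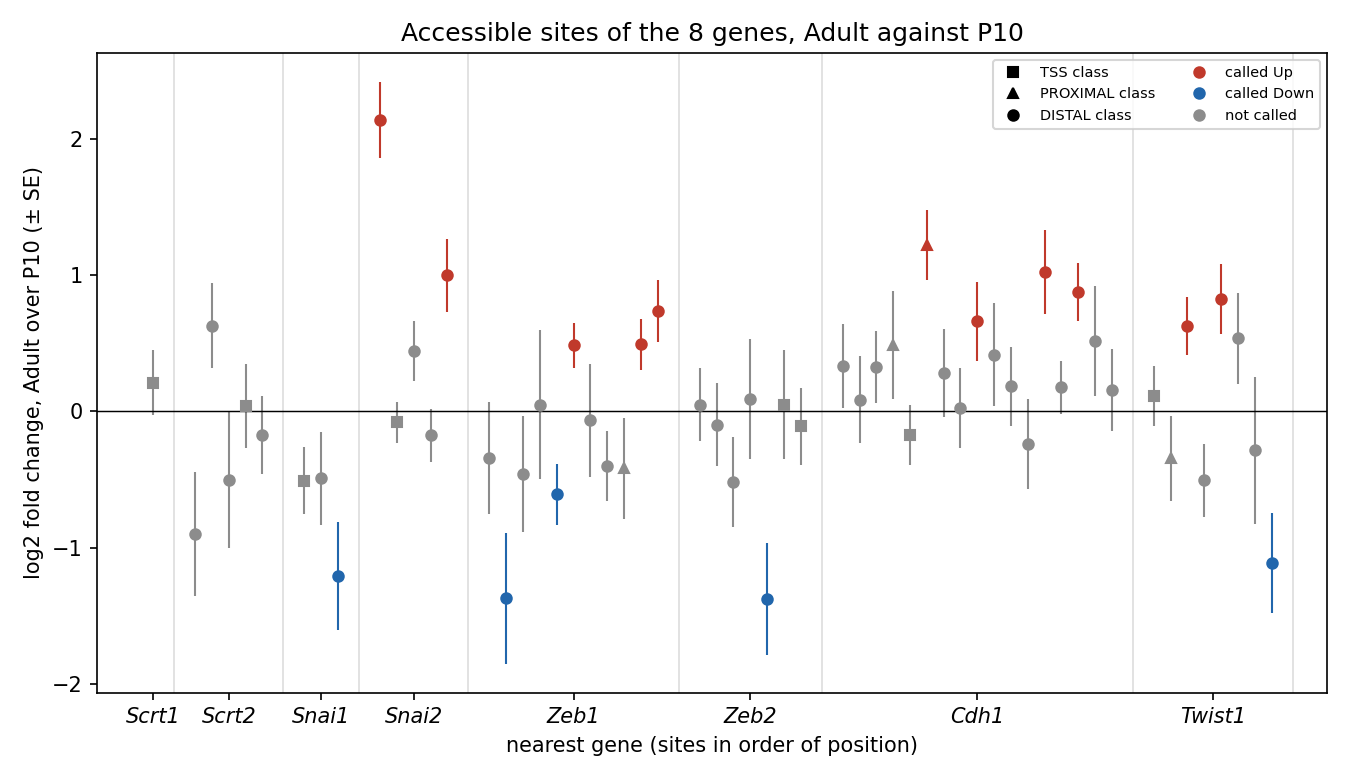
Log2 fold change of adult over P10 with its SE (y axis) for each of the 57 ACS, grouped by nearest gene and ordered by position (x axis). Squares, triangles and circles mark the TSS, proximal and distal classes, and the 11 ACS called Up (red) and 5 called Down (blue) lie outside the TSS class.

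By the deposited classes, 8 of the 57 ACS were of the TSS class (within about 1 kb of a gene start), 4 proximal and 45 distal. None of the 8 TSS-class ACS was called by edgeR, where 10.6% of all TSS-class ACS were called in either direction. One of the 8, at *Snai1*, had an unadjusted p under 0.05. DESeq2 and limma voom called 0 of the 8 as well, with 1 and 0 at an unadjusted p under 0.05, whereas cyclic loess scaling with limma-trend and column sums without TMM called 1 each and total reads as library sizes 6. The called ACS were 10 distal and 1 proximal ACS in the Up direction and 5 distal ACS in the Down direction. Over all distal and proximal ACS, 13.5% were called Up and 6.48% Down.

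*Scrt1* encodes a Scratch repressor of neuronal and endocrine cells, and a single ACS was assigned to it. This ACS (chr7:117575732-117576517, Rn5) was of the TSS class and lay upstream of the gene, 998 bp from its start. It held 11.5, 17.1 and 10.8 CPM in adult replicates 4, 5 and 6 and 14.6, 10.3 and 9.20 CPM in P10 replicates 1, 2 and 3. The groups overlapped, and the highest library of each group (adult replicate 5 and P10 replicate 1) stood above the others of its group. The log2 fold change was 0.21 (SE 0.24, 95% interval -0.28 to 0.70, edgeR FDR = 0.688), and it was -0.03 without adult replicate 5. The ACS had a mean of 170 integrations per library, and the interval holds changes in both directions.

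The 5 TSS-class ACS of other genes whose log2 CPM followed the *Scrt1* ACS most closely over the 6 libraries were those of *RGD1305713* (Pearson r = 0.99), *Palm* (r = 0.97), *Nmnat2* (r = 0.97), *Slc7a6os* (r = 0.97) and *Sqstm1* (r = 0.96). Of the 10130 TSS-class ACS compared, 40 had r above 0.9. None of the 5 was called. The correlations describe these libraries, which differ in depth, and were not tested.

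*Scrt2*, the second Scratch gene, had 5 ACS (1 TSS, 4 distal), of which none was called by edgeR, with 0 at an unadjusted p under 0.05. DESeq2 and limma voom called 0 as well, and edgeR without its legacy setting called 1 Up. Without adult replicate 5, 1 was called Down (log2 fold change -1.50, edgeR FDR = 0.0726), without adult replicate 6, 1 was called Up (log2 fold change 0.90, FDR = 0.0726), and with total reads as library sizes 4 were called Down. The TSS-class ACS (chr3:153934608-153934972) overlapped the gene start and held 4.61, 4.67 and 2.96 CPM in the adult libraries (replicates 4, 5 and 6) and 5.11, 3.57 and 3.28 CPM in the P10 libraries (replicates 1, 2 and 3). The groups overlapped, with adult replicate 6 lowest, and the log2 fold change of 0.04 (SE 0.31, 95% interval -0.59 to 0.67, FDR = 0.964) turned negative with column sums, total reads or cyclic loess scaling, and without adult replicate 4 or 5 or P10 replicate 2 or 3. The ACS of *Scrt2* with the highest mean CPM (chr3:153945616-153945989) lay within the gene, with 7.32, 4.77 and 3.61 CPM in adults and 6.60, 5.63 and 5.66 CPM at P10. Adult libraries spread around the P10 libraries there (log2 fold change -0.17, SE 0.28, FDR = 0.801). The remaining 3 lay upstream, with log2 fold changes between -0.90 and 0.63. These 2 extremes fell just past the limits, with FDR of 0.251 and 0.238 in edgeR's test.

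*Snai1* encodes Snail, and its 3 ACS all had fewer integrations in adult than in P10 islets by their fitted fold changes, of which 1 was called Down. The TSS-class ACS (chr3:170425488-170426014) overlapped the gene start. Its values were 7.50, 7.60 and 6.57 CPM in adult replicates 4, 5 and 6 and 10.9, 12.3 and 7.72 CPM in P10 replicates 1, 2 and 3. All adult libraries lay below all P10 libraries, although P10 replicate 3 was close to the adult values. The log2 fold change of -0.51 (SE 0.25) missed the limit in edgeR's test (FDR = 0.231), and the ACS was called Down without P10 replicate 3, with a log2 fold change of -0.69. It was also called with column sums without TMM, total reads or cyclic loess scaling, and among ACS with a mean of at least 50 integrations. The called ACS (chr3:170446273-170446618), 20375 bp downstream of the start, held 1.27, 3.02 and 0.645 CPM in adults and 4.56, 3.64 and 3.49 CPM at P10. Adult libraries were lower without overlap, and adult replicate 5 came nearest to P10 (log2 fold change -1.21, SE 0.40, FDR = 0.0537). Without adult replicate 6 this call was lost (log2 fold change -0.87, FDR = 0.215), and without adult replicate 5 the log2 fold change was -1.97 (FDR = 0.00578). The third ACS, 14652 bp downstream, was not called (log2 fold change -0.49, FDR = 0.455).

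*Snai2* encodes Slug, which acts in neural crest and mesenchymal cells, and 2 of its 5 ACS were called Up. The ACS at chr11:93404217-93404507, 60737 bp downstream of the start, had the largest fold change of the 57. Integrations there amounted to 12.0, 8.96 and 9.41 CPM in adult replicates 4, 5 and 6 and to 2.42, 1.78 and 2.64 CPM in P10 replicates 1, 2 and 3. Each adult library was more than 3 times as high as each P10 library. The log2 fold change was 2.14 (SE 0.28, FDR = 9.9e-06 in edgeR's test) and ranged from 1.98 to 2.24 when single libraries were left out.

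The other called *Snai2* ACS (chr11:93517767-93518065), 52813 bp upstream, was the 16th of all 101603 ACS by mean CPM although it spans only 299 bp. Its values were 495, 1349 and 580 CPM in adult replicates 4, 5 and 6 and 199, 506 and 507 CPM in P10 replicates 1, 2 and 3. The groups overlapped, since adult replicate 4 lay below P10 replicates 2 and 3, and the spread within each group was wide (808 ± 471 CPM in adults and 404 ± 178 CPM at P10, SD, n = 3). The log2 fold change of 0.999 (SE 0.27, FDR = 0.0165) rested on adult replicate 5. Without that library it was 0.41 and no longer called (FDR = 0.321), and DESeq2 did not call it with all libraries (FDR = 0.371). This ACS held 85.1% of the *Snai2* integrations in adults and 74.5% at P10.

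At the *Snai2* start, the TSS-class ACS (chr11:93464540-93465623) was wide and strongly accessible in every library. It held 81.5, 67.4 and 66.8 CPM in adults and 67.5, 79.0 and 81.7 CPM at P10. The groups covered the same range, and the log2 fold change was -0.08 (SE 0.15, 95% interval -0.39 to 0.23, FDR = 0.833). The other 2 ACS lay 46018 and 48900 bp upstream, near the strongest one, with log2 fold changes of 0.44 (FDR = 0.239) and -0.18 (FDR = 0.684). Without adult replicate 6 the ACS 46018 bp upstream was called Up (log2 fold change 0.56, FDR = 0.180). That of the ACS 48900 bp upstream ranged from -0.36 to 0.06 when single libraries were left out.

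*Zeb1* encodes a repressor of epithelial genes in mesenchymal cells, and none of its 11 ACS was of the TSS class. Of them 3 were called Up and 2 Down, so the ACS of this gene moved in both directions. The most accessible one (chr17:52314469-52315046), 95046 bp downstream of the start, held 38.0, 41.6 and 41.6 CPM in adult replicates 4, 5 and 6 and 31.6, 27.2 and 27.6 CPM in P10 replicates 1, 2 and 3. Adult libraries were higher without overlap and both groups were tight (log2 fold change 0.49, SE 0.16, FDR = 0.0643). The call was lost without P10 replicate 2 (FDR = 0.287) and without P10 replicate 3 (FDR = 0.216). Upstream, the ACS 16098 bp from the start (chr17:52425613-52426592) held 27.8, 21.8 and 27.7 CPM in adults and 18.6, 18.0 and 18.3 CPM at P10. P10 values were close together there and every adult library exceeded them (log2 fold change 0.49, SE 0.19, FDR = 0.104). It was not called without adult replicate 4 (FDR = 0.251), adult replicate 6 (FDR = 0.262), P10 replicate 2 (FDR = 0.311) or P10 replicate 3 (FDR = 0.237). The third Up ACS (chr17:52452590-52453013), 43075 bp upstream, held 22.5, 14.8 and 15.6 CPM in adults and 13.2, 9.13 and 9.41 CPM at P10. One library of each group (adult replicate 4 and P10 replicate 1) was the higher one, and the groups did not overlap (log2 fold change 0.74, SE 0.23, FDR = 0.0377). Leaving out adult replicate 4 (FDR = 0.244) or P10 replicate 2 (FDR = 0.206) ended this call.

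The 2 Down ACS of *Zeb1* lay downstream of the start, beyond the end of the gene. The one 106139 bp away (chr17:52303376-52303975) held 10.2, 8.86 and 9.67 CPM in adults and 13.2, 17.8 and 13 CPM at P10. P10 replicate 2 was highest and no adult library reached the P10 values (log2 fold change -0.61, SE 0.22, FDR = 0.0899, and FDR = 0.402 without P10 replicate 2). The other, 188977 bp away (chr17:52220538-52220823), was faint, with 0.271, 0.876 and 0.902 CPM in adults and 1.39, 1.85 and 1.96 CPM at P10. Its mean was 18.7 integrations per library, and adult values were lower without overlap (log2 fold change -1.37, SE 0.48, FDR = 0.0715). The call ended without adult replicate 4 (FDR = 0.286) and without P10 replicate 3 (FDR = 0.215). The uncalled *Zeb1* ACS, 6 in number, lay between -0.46 and 0.05 in log2 fold change.

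*Zeb2*, the second ZEB gene, had 7 ACS, all within the gene or at its start, and 1 was called Down. That ACS (chr3:35133178-35133443) lay within the gene, 52225 bp from the start, and held 0.813, 1.27 and 0.902 CPM in adult replicates 4, 5 and 6 and 2.51, 1.93 and 3.33 CPM in P10 replicates 1, 2 and 3. Adult libraries were lower without overlap (log2 fold change -1.38, SE 0.41, FDR = 0.0304), and the ACS was called whichever library was left out. At the gene start, one TSS-class ACS (chr3:35185206-35185770) held 4.43, 4.19 and 4.64 CPM in adults and 4.09, 5.49 and 4.76 CPM at P10, and a second (chr3:35184758-35184999), 645 bp into the gene, held 1.36, 1.46 and 2.45 CPM in adults and 1.81, 1.28 and 1.85 CPM at P10. Both groups overlapped at each, with log2 fold changes of -0.11 (FDR = 0.884) and 0.05 (FDR = 0.967). The most accessible *Zeb2* ACS (chr3:35100416-35100896), 84987 bp into the gene, ranged from 5.24 to 5.93 CPM in adults and from 4.71 to 5.67 CPM at P10 (log2 fold change 0.05, SE 0.27, FDR = 0.950).

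*Cdh1* encodes E-cadherin, the adhesion protein of epithelial cells and a classical target of Snail and ZEB repression, and it had the most ACS of the 8 genes (17). Of these 4 were called Up and none Down by edgeR. DESeq2, limma voom and limma-trend also called 0 Down and edgeR found 0 Down at an unadjusted p under 0.05, whereas 5 were called Down with total reads as library sizes. The proximal ACS at chr19:49640811-49641259, 4846 bp into the gene, held 27.1, 15.8 and 15.3 CPM in adult replicates 4, 5 and 6 and 11.4, 7.28 and 6.24 CPM in P10 replicates 1, 2 and 3. Adult replicate 4 and P10 replicate 1 were the highest of their groups and the groups did not overlap (log2 fold change 1.22, SE 0.25, FDR = 0.00202). Downstream of the gene, the ACS 125646 bp from the start (chr19:49761611-49762000) held 21.2, 19.0 and 19.6 CPM in adults and 13.7, 9.99 and 8.88 CPM at P10. Adult values were close together and above all P10 values (log2 fold change 0.88, SE 0.21, FDR = 0.00801). Both ACS were called whichever library was left out.

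**Figure D2:**
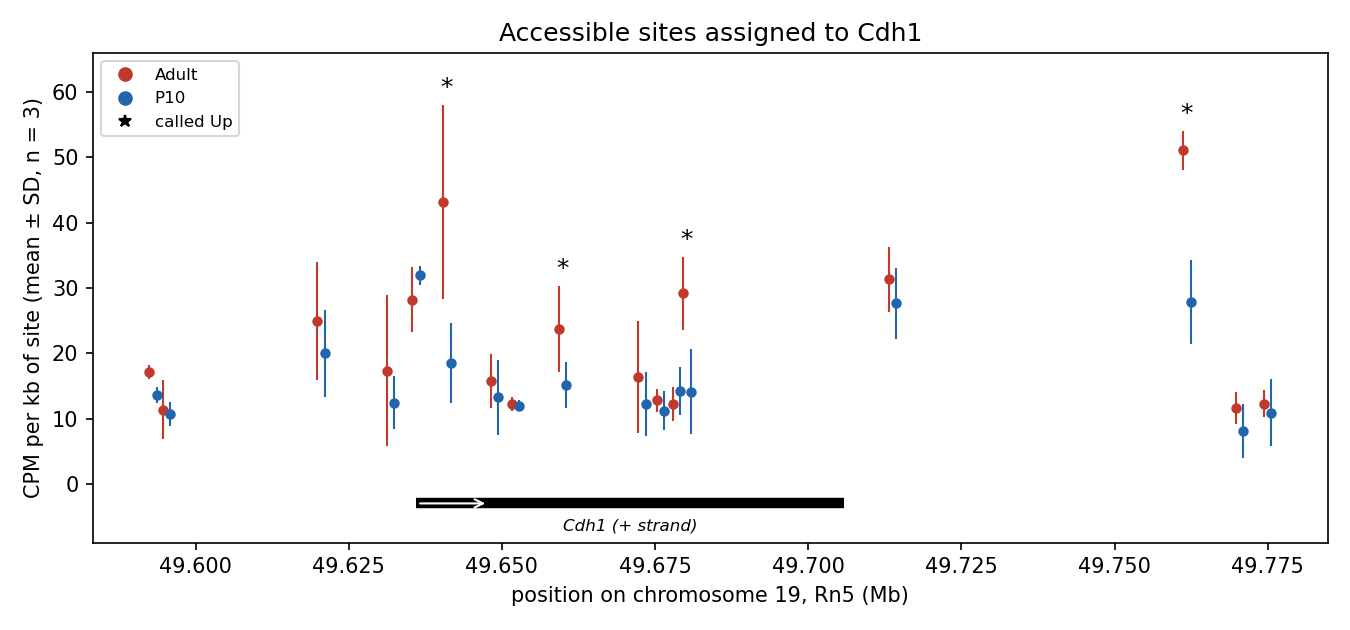
Accessibility per kb of each of the 17 ACS assigned to *Cdh1* (y axis, CPM per kb, mean ± SD, n = 3 libraries) by position on chromosome 19 in Rn5 (x axis, adult and P10 points drawn slightly apart), with the gene as a black bar. Asterisks mark the 4 ACS called Up, and the ACS at the gene start carries none.

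The 2 further Up ACS lay within *Cdh1*. The ACS 44117 bp from the start (chr19:49680082-49680326) held 8.31, 5.65 and 7.48 CPM in adults and 5.25, 2.21 and 2.91 CPM at P10. Its groups were separated by a small gap (log2 fold change 1.02, SE 0.31, FDR = 0.0339), and the call was lost without P10 replicate 2 (FDR = 0.219). The ACS 23792 bp from the start (chr19:49659757-49660034) held 7.41, 7.89 and 4.51 CPM in adults and 5.25, 3.99 and 3.33 CPM at P10. Adult replicate 6 fell below P10 replicate 1, so the groups overlapped (log2 fold change 0.66, SE 0.29, FDR = 0.173). More settings ended this call than any other of the 16. It was lost without adult replicate 4 (FDR = 0.359), adult replicate 5 (FDR = 0.376), P10 replicate 2 (FDR = 0.399) or P10 replicate 3 (FDR = 0.460), with column sums (FDR = 0.242) or cyclic loess scaling (FDR = 0.278), and among ACS with a mean of at least 50 integrations (FDR = 0.204). With total reads as library sizes its log2 fold change turned to -0.19.

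At the *Cdh1* start, the TSS-class ACS (chr19:49635759-49636158) held 12.7, 12.1 and 9.02 CPM in adults and 12.2, 13.3 and 12.8 CPM at P10. Only adult replicate 6 lay apart from the other libraries, on the low side, and the groups overlapped (log2 fold change -0.17, SE 0.22, 95% interval -0.62 to 0.28, FDR = 0.729). The most accessible *Cdh1* ACS (chr19:49713372-49714161), 77407 bp from the start and downstream of the gene, held 28.8, 21.0 and 24.4 CPM in adults and 26.7, 20.3 and 18.6 CPM at P10, with overlap (log2 fold change 0.18, SE 0.19, FDR = 0.675). The log2 fold changes of the 13 uncalled *Cdh1* ACS lay between -0.24 and 0.52.

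*Twist1*, a bHLH factor of mesenchymal cells, had 8 ACS, of which 2 were called Up and 1 Down. All but the TSS-class ACS lay downstream of the gene. The TSS-class ACS (chr6:63023533-63024215), from 10 bp into the gene, held 12.9, 13.8 and 12.0 CPM in adult replicates 4, 5 and 6 and 10.1, 11.1 and 14.6 CPM in P10 replicates 1, 2 and 3. The groups overlapped, and P10 replicate 3 was the highest library (log2 fold change 0.11, SE 0.22, FDR = 0.841). The Up ACS 20557 bp from the start (chr6:63044080-63044694) held 17.4, 18.6 and 15.7 CPM in adults and 9.11, 12.7 and 11.8 CPM at P10. The second Up ACS (chr6:63230696-63231116), 207173 bp away, held 11.5, 8.28 and 10.7 CPM in adults and 4.37, 7.13 and 5.76 CPM at P10. Adult libraries were higher without overlap at both, with log2 fold changes of 0.63 (SE 0.21, FDR = 0.0637) and 0.83 (SE 0.26, FDR = 0.0396). The Down ACS (chr6:63344434-63344741), 320911 bp from the start, held 2.26, 1.07 and 1.42 CPM in adults and 3.16, 3.28 and 3.96 CPM at P10. Adult libraries were lower without overlap (log2 fold change -1.11, SE 0.37, FDR = 0.0538). Each of these 3 ACS was called whichever library was left out. The assignment by nearest gene does not show that an ACS so far away acts on *Twist1*.

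**Figure D3:**
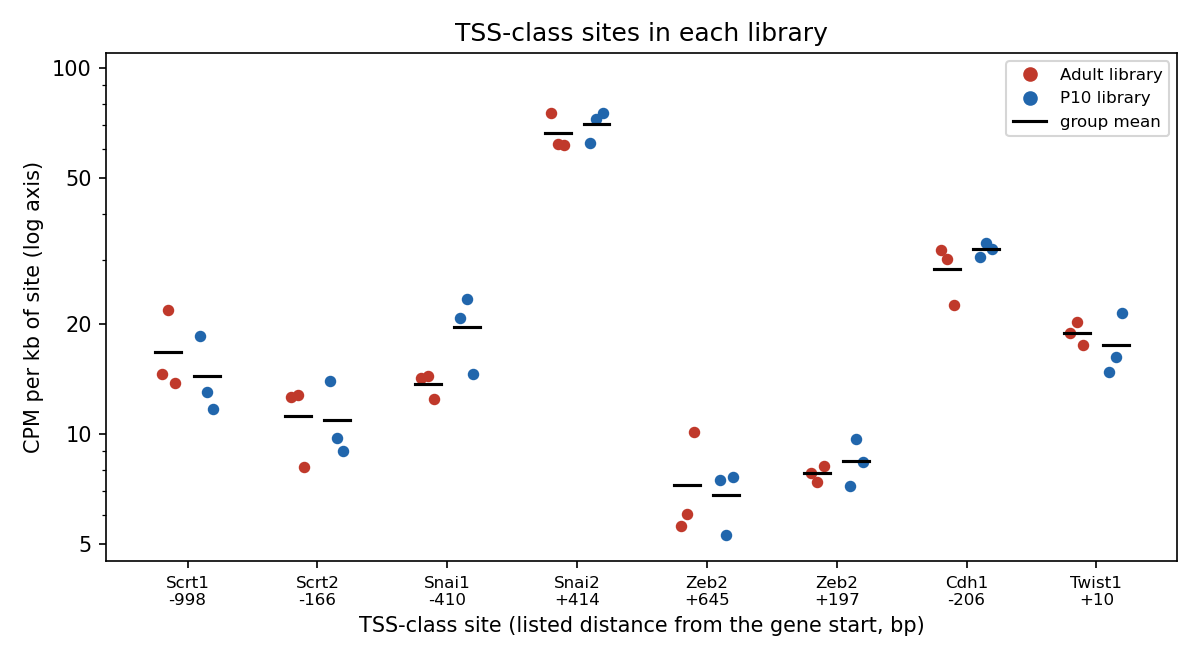
CPM per kb of each TSS-class ACS (y axis, log scale) in each adult (red) and P10 (blue) library, with the group mean as a bar, for the 8 TSS-class ACS of the genes (x axis, with the listed distance from the gene start in bp). The *Snai2* ACS stands highest and the 2 *Zeb2* ACS lowest in both groups, and only the *Snai1* ACS shows no overlap between groups.

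Compared per length, the TSS-class ACS differed widely between genes. The *Snai2* ACS had 66.3 ± 7.69 CPM per kb in adults and 70.2 ± 6.96 CPM per kb at P10 (SD, n = 3), above 92.6% of all TSS-class ACS. The *Cdh1* ACS followed with 28.2 ± 4.96 and 32.0 ± 1.45 CPM per kb. The ACS of *Twist1* (18.9 ± 1.35 in adults, 17.5 ± 3.47 at P10), *Scrt1* (16.7 ± 4.42 and 14.4 ± 3.64) and *Snai1* (13.7 ± 1.07 and 19.6 ± 4.49 CPM per kb) came next. *Scrt2* had 11.2 ± 2.65 and 10.9 ± 2.70 CPM per kb. The *Zeb2* ACS at the gene start was lowest but 1, with 7.82 ± 0.401 and 8.46 ± 1.24 CPM per kb, above 4.43% of TSS-class ACS, and the second *Zeb2* ACS had 7.25 ± 2.49 and 6.81 ± 1.31 CPM per kb, with libraries that overlapped those of the first in each group. In this order of adult means, the libraries of *Snai2* lay above those of *Cdh1*, and those of *Cdh1* above those of *Twist1*, without overlap in either group. From *Twist1* on, neighbours overlapped in each group, except that at P10 *Snai1* (lowest 14.6 CPM per kb) lay above *Scrt2* (highest 14.0 CPM per kb).

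Summed over all ACS of a gene, the groups did not overlap for 5 of the 8 genes, where this held for 22.3% of all 14776 genes, and an exact permutation test (two-sided, 3 against 3 libraries) gave p = 0.1 for each of these, the smallest p this design allows. *Zeb1* summed to 107 ± 4.12 CPM in adults and 89.9 ± 4.59 CPM at P10 (SD, n = 3), a log2 ratio of 0.25. *Twist1* summed to 54.4 ± 1.62 and 47.0 ± 6.31 CPM, and *Snai2* to 949 ± 473 and 543 ± 178 CPM. *Snai1* (11.5 ± 1.80 and 17.9 ± 3.60 CPM) and *Zeb2* (20.2 ± 1.78 and 23.1 ± 1.29 CPM) summed to less in adults. The *Cdh1* sum was 144 ± 21.9 and 108 ± 22.4 CPM with overlap (exact p = 0.2), and the sums of *Scrt1* (exact p = 0.5) and *Scrt2* (exact p = 1) overlapped as well. Some of these ratios moved with single libraries. The log2 ratio of *Snai2* was 0.81 and fell to 0.32 without adult replicate 5, that of *Twist1* was 0.21 and 0.11 without P10 replicate 1, and that of *Zeb2* was -0.20 and -0.12 without adult replicate 5. The *Scrt1* and *Scrt2* ratios (0.21 and 0.03) turned to -0.03 each without adult replicate 5, and that of *Scrt2* was also negative without adult replicate 4, P10 replicate 2 or P10 replicate 3. With column sums without TMM the ratios of *Zeb1* and *Twist1* were 0.15 and 0.11, and the groups then overlapped for *Twist1* and *Snai2*. The *Snai2* difference came from its most integrated ACS. Without that ACS, a sum chosen after the values were seen, *Snai2* had 141 ± 22.0 CPM in adults and 139 ± 1.07 CPM at P10. With total reads as library sizes, the median log2 fold change of all ACS moved by -0.83, and the sums of *Zeb1*, *Twist1*, *Cdh1*, *Scrt1* and *Scrt2* were then lower in adults.

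Promoter sequences from RefSeq (GRCr8, 250 bases before to 50 after the gene start) were found for 4 of the 8 genes, *Snai1*, *Zeb1*, *Zeb2* and *Twist1*. Since Snail, Scratch and ZEB factors bind E-boxes, 5 motifs were searched on both strands, namely CAGGTG, its longer forms ACAGGTG and CAACAGGTG (which contain it), CAGGTA and CACGTG. They occur in 18.8%, 4.42%, 0.203%, 12.1% and 6.42% of the 33469 promoters, in that order. CAGGTG was present in the *Snai1* and *Zeb1* promoters and not in those of *Zeb2* and *Twist1*, and the other 4 motifs were in none of the 4. The promoters of *Snai1* (chr3:176667226-176667525, plus strand) and *Zeb2* (chr3:49754274-49754573, minus strand) are shown because an ACS overlapped the annotated start of each gene in Rn5, and at the former the adult libraries lay below the P10 libraries. The windows follow the gene start in GRCr8 and were not mapped to the ACS in Rn5, so the letters need not be those of the ACS. Capitals mark CACCTG, the reverse complement of CAGGTG, 142 bases before the *Snai1* start.
Snai1: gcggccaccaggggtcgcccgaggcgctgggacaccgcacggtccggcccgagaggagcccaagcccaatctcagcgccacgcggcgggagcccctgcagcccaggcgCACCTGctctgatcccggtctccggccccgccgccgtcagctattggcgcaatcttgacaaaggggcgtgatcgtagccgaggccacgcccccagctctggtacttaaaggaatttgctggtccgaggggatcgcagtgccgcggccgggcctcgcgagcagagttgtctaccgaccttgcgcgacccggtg
Zeb2: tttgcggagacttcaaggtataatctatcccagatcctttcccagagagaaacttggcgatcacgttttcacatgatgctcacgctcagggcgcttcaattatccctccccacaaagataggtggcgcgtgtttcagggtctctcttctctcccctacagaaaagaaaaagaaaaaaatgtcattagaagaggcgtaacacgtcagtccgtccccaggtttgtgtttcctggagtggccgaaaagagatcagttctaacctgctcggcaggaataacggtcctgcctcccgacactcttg
The *Snai1* window was 70.0% G and C and the *Zeb2* window 49.0%. The *Zeb1* promoter held 2 matches of CAGGTG, 95 bases before the start and 38 bases after it. A match is a description of the letters and does not show binding.

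Around *Scrt1*, 7 ACS of other genes lay within 50000 bp of the gene start, a window chosen after the values were seen. The ACS 30881 bp away, nearest to the heat shock factor gene *Hsf1*, held 10.2, 9.54 and 7.48 CPM in adult replicates 4, 5 and 6 and 5.86, 3.07 and 3.59 CPM in P10 replicates 1, 2 and 3. It was called Up without overlap (log2 fold change 1.11, SE 0.28, FDR = 0.00978). ACS nearest to *Fbxl6* (log2 fold change -0.80, FDR = 0.0774) and *Slc52a2* (log2 fold change -0.95, FDR = 0.109) were called Down, with overlap between the groups. Of the 6 ACS of other genes in the same window around *Snai1*, 1 was called Up, a proximal ACS of *Spata2* (log2 fold change 0.76, FDR = 0.0279), and it overlapped between the groups. The 4 ACS of other genes around *Scrt2*, 1 around *Zeb2* and 1 around *Twist1* were not called. Over all ACS 12.3% were called Up and 6.63% Down. When each of the 6 libraries was left out in turn, the ACS of *Hsf1*, *Fbxl6*, *Slc52a2* and *Spata2* were called 6, 3, 3 and 5 times.

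Other genes of the same biology were taken as lists. Of 16 genes taken as relatives of these repressors (SNAG-domain and E-box factors, with the homeobox gene *Prrx1*, the forkhead genes *Foxc1* and *Foxc2* and the zinc finger gene *Klf8*), 12 had ACS, and of their 125 ACS 19 were called Up and 5 Down (15.2% and 4%, against 12.3% and 6.63% over all ACS, median log2 fold change 0.04). Examples were a distal ACS of *Prrx1*, a homeobox factor of mesenchymal cells, with 41.5 ± 5.11 CPM in adults and 18.0 ± 3.09 CPM at P10 (SD, n = 3; log2 fold change 1.20, edgeR FDR = 6.4e-05), and a distal ACS of *Twist2* with 1.09 ± 0.337 and 4.58 ± 1.39 CPM (log2 fold change -2.07, FDR = 0.000614). Corepressors and regulators of the family had ACS at 22 of 28 genes. Of their 211 ACS, 16 were called Up and 19 Down (7.58% and 9.005%, against 12.3% and 6.63% over all ACS, median -0.13). The smallest p-value among the Down ACS belonged to an ACS 488184 bp upstream of the orphan nuclear receptor gene *Nr2f2*. It held 1.90, 0.487 and 1.16 CPM in adult replicates 4, 5 and 6 and 3.90, 3.49 and 4.60 CPM in P10 replicates 1, 2 and 3 (log2 fold change -1.74, FDR = 0.00476). Next came distal ACS of *Nr2f1*, 929989 bp upstream (log2 fold change -1.01, FDR = 0.0133), and *Elf3* (log2 fold change -0.84, FDR = 0.0242). The smallest among the Up ACS belonged to a proximal ACS of *Limd1*, with 6.24, 5.65 and 5.67 CPM in adults and 2.74, 1.71 and 1.85 CPM at P10 (log2 fold change 1.46, FDR = 0.00231). Next came another ACS of *Nr2f1*, 385521 bp upstream (log2 fold change 1.03, FDR = 0.00674). A distal ACS of *Hdac2*, a histone deacetylase recruited by Snail, followed with 40.7 ± 4.46 CPM in adults and 26.0 ± 1.39 CPM at P10 (log2 fold change 0.64, FDR = 0.0131). Of 36 epithelial adhesion and target genes 30 had ACS, and 31 of their 202 ACS were called Up and 11 Down (15.3% and 5.45%, against 12.3% and 6.63% over all ACS, median 0.02). The smallest p-values among these belonged to 3 distal ACS of the neural cadherin gene *Cdh2*. They lay within the gene and, counted from its start, 488790 bp downstream and 1233181 bp upstream. The ACS within the gene had 61.9 ± 12.6 CPM in adults and 28.0 ± 3.12 CPM at P10 (log2 fold change 1.14, FDR = 7.2e-05). The Down ACS with the smallest p-value lay 1021 bp into *Muc1*, an epithelial mucin gene, with 5.75 ± 2.64 and 11.0 ± 1.85 CPM (log2 fold change -0.92, FDR = 0.0367). Each of the ACS given as examples was called whichever library was left out. The *Twist2* ACS lay 127816 bp downstream of the gene start. Assignment by nearest gene does not show that an ACS acts on that gene.

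Markers of the cell types that islet preparations can hold were summed in every library, beside the ACS of the repressors. The TMM factors that multiply the library sizes were 0.930, 0.995 and 0.980 in adult replicates 4, 5 and 6. They were 1.02, 1.04 and 1.04 in P10 replicates 1, 2 and 3. A smaller factor raises every CPM, so the CPM sum over all ACS was also higher in every adult library than in every P10 library. Mesenchymal and stromal genes had ACS at 24 of 29 genes, with 34 of 202 ACS called Up and 18 Down (16.8% and 8.91%, against 12.3% and 6.63% over all ACS). Their sums were 1534, 1346 and 1530 CPM in adult replicates 4, 5 and 6 and 1236, 1246 and 1276 CPM in P10 replicates 1, 2 and 3. The groups did not overlap (exact permutation test, two-sided, p = 0.1). *Cdh11* had the highest sum, and one of its ACS, 246322 bp upstream, rose by 2.94 on the log2 scale (FDR = 9.9e-08). The Down ACS with the smallest p-value lay within *Tgfbr2*, a TGF-beta receptor gene, with 0.406 ± 0.325 CPM in adults and 1.56 ± 0.103 CPM at P10 (log2 fold change -1.89, FDR = 0.0194). No ACS was assigned to *Col6a3*, *Acta2*, *Tagln*, *Mmp14* or *Lox*. At the TSS-class ACS of the same list the order was the opposite, with 157, 154 and 156 CPM in adults and 161, 168 and 165 CPM at P10. TSS-class ACS as a whole leaned the same way, with a median log2 fold change of -0.10, 2.73% called Up and 7.87% Down.

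Endothelial genes (14 of 15 with ACS, all but *Eng*) summed to 848, 770 and 807 CPM in adults and 727, 704 and 710 CPM at P10, without overlap, with *Cdh5* highest and 12 of 96 ACS called Up and 6 Down (12.5% and 6.25%, against 12.3% and 6.63% over all ACS). The smallest p-values were those of an Up ACS assigned to *Cdh5* from 537655 bp upstream (log2 fold change 1.96, FDR = 3.1e-06) and a Down ACS of *Robo4*, 37495 bp upstream (log2 fold change -1.07, FDR = 0.0680, and FDR = 0.256 without P10 replicate 2). Duct genes (8 of 10 with ACS) summed to 577, 524 and 567 CPM in adults and 499, 497 and 508 CPM at P10, also without overlap, with *Slc4a4* highest and 9 of 89 ACS (10.1%) called in each direction, first an Up ACS of *Cftr* (log2 fold change 1.82, FDR = 1.5e-06) and a Down ACS of *Anxa4* (log2 fold change -1.21, FDR = 0.0139). The TSS-class ACS of duct genes were lower in adults, at 82.1, 84.7 and 89.6 CPM against 97.8, 98.6 and 101 CPM. The TSS-class ACS of endothelial genes had 29.9 ± 4.23 CPM in adults and 36.3 ± 3.92 CPM at P10 (SD, n = 3), with overlap. Adult sums were higher without overlap in 2 further lists, as was the CPM sum over all ACS. The relatives of the repressors summed to 1364, 1126 and 1299 CPM in adults and 1099.6, 1099.9 and 1097 CPM at P10, with *Bhlhe40* highest, and the epithelial genes to 2376, 2100.3 and 2136 CPM against 2083, 1994 and 1893 CPM, with *Cdh2* highest, which is also a gene of mesenchymal cells. The relatives include mesenchymal factors such as *Prrx1* and *Twist2*. At the TSS-class ACS of the relatives the order was the opposite, with 53.3, 49.6 and 49.1 CPM in adults and 56.6, 55.6 and 56.0 CPM at P10. Those of the epithelial genes overlapped, with 641, 541 and 542 CPM in adults and 625, 585 and 519.5 CPM at P10. With total reads as library sizes all 5 of these lists summed to less in adults. With column sums without TMM, their log2 ratios were 0.13 in place of 0.23 (mesenchymal), 0.08 in place of 0.18 (endothelial), 0.05 in place of 0.15 (duct), 0.10 in place of 0.20 (relatives) and 0.05 in place of 0.15 (epithelial). The groups then overlapped for the duct, relatives and epithelial lists, and stayed apart for the mesenchymal and endothelial lists. Without adult replicate 4, that of the epithelial genes was 0.09. The part of these sums in the Up calls of *Snai2*, *Zeb1*, *Cdh1* and *Twist1* was not tested.

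Endocrine genes (15 of 20, without *Ppy*, *G6pc2*, *Chga*, *Pcsk1* and *Mafa*) summed to 2328, 1982 and 2101 CPM in adults and 2523, 2007 and 2072 CPM at P10, with *Slc2a2* highest and 24 of 232 ACS called Up and 29 Down (10.3% and 12.5%, against 12.3% and 6.63% over all ACS). Their TSS-class ACS had 352 ± 48.6 CPM in adults and 441 ± 88.7 CPM at P10 (SD, n = 3), with overlap. The smallest p-values were those of an Up ACS of *Slc2a2*, 155599 bp upstream (log2 fold change 1.51, FDR = 0.000124), and a Down ACS of *Ins1*, 197687 bp upstream (log2 fold change -2.28, FDR = 0.00152). Acinar genes (12 of 17, without *Cel*, *Cela1*, *Prss2*, *Ctrc* and *Amy2a3*) summed to 625, 567 and 596 CPM in adults and 583, 584 and 581 CPM at P10, with *Ptf1a* highest and 6 of 96 ACS called Up and 13 Down (6.25% and 13.5%), first an Up ACS of *Ptf1a* (log2 fold change 2.43, FDR = 2.6e-06) and a Down ACS of *Nr5a2* (log2 fold change -0.90, FDR = 0.0140). Schwann and neuronal genes (8 of 12 with ACS) summed to 750, 649 and 693 CPM in adults and 772, 671 and 717 CPM at P10, with *Elavl4* highest, a symbol that the annotation lists at 2 distant positions of chromosome 5, and 6 of 83 ACS called Up and 10 Down (7.23% and 12.0%). The smallest p-values were those of an Up ACS of *Elavl4* (log2 fold change 1.04, FDR = 0.00856) and a Down ACS of *Snap25* (log2 fold change -0.84, FDR = 0.0101). In the endocrine, acinar, Schwann and neuronal lists the summed groups overlapped. The sums of the corepressors and regulators overlapped too, with 2141, 2389 and 2224 CPM in adults and 2309, 2295 and 2163 CPM at P10. Immune genes (7 of 12, without *Cd68*, *Lyz2*, *Cd79a*, *Aif1* and *Fcer1g*) had 14 ACS, of which 2 (14.3%) were called Down, first one of *Cd14* (log2 fold change -2.31, FDR = 0.0130), and summed to 67.1, 57.3 and 65.5 CPM in adults and 70.5, 62.5 and 61.8 CPM at P10, with overlap and with *Cd14* highest. Of the ACS named from these cell type lists, all but that of *Robo4* were called whichever library was left out. The *Nr5a2* ACS lay 294653 bp upstream. Assignment by nearest gene does not show that an ACS acts on the marker gene.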

How the data were processed

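ATAC-seq was made from dissociated pancreatic islet cells of 3 adult rats and 3 P10 litters. Per the study's methods and the submitters' processing notes, reads were aligned to Rn5 with BWA 0.7.13, reads from mitochondria or with a low mapping quality were discarded, and peaks were called with MACS2 2.1.1 on the joined samples of each age. Duplicate removal is not given in the sources used here. The authors deposited raw integration counts for each ACS in each library, with the nearest gene, the class and columns of their own comparison (fold change, mean level, F, p-value and FDR), which were not used. Of 101941 entries, 338 repeated an ACS with another nearest gene, and each of the 101603 ACS was tested once.

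edgeR 4.0.16 (quasi-likelihood, legacy setting, TMM, age as the only term) was run over all ACS without a filter. It was tested on simulated data, where fold changes were recovered but most of the changed ACS missed the FDR limit, so that an ACS not called may still differ. A first criterion, on the share of changed ACS called, was not met, and was replaced afterwards by one on fold changes, unadjusted p and false calls. Alternatives used DESeq2 1.42.0, limma 3.58.1, other scalings and filters, and each library left out. Members and lists were chosen with earlier results of these data known. The duct, Schwann and neuronal genes without an ACS are not reported here by name. Named by rule were every TSS-class and every called ACS of the 8 genes, the most accessible ACS of each gene, in each related list the called ACS with the smallest p in each direction (of the 3 per direction that the rule allows, further ones for the corepressors and Cdh2 only), and the 5 TSS-class ACS most like that of Scrt1 (log2 CPM, prior count 2, mean of at least 50 integrations). ACS near Scrt1, Snai1, Scrt2, Zeb2 and Twist1 that belong to other genes were added after their values were seen. A P10 library mixed pups of a litter, and p-values measure the spread between the 3 libraries of a group.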

Additional observations from a re-analysis of the deposited data

How the results depend on the processing

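Of the alternatives, the library size mattered most. With the total reads per library as library sizes, 1062 ACS were called Up and 61663 Down, against 12504 and 6738 otherwise, and the counts were 1 and 30 for the ACS of the 8 genes and 16 and 849 for the related lists. The share of Up among all calls was 65.0%, 1.69% with total reads, 49.3% with column sums without TMM (10732 Down) and 54.9% with cyclic loess scaling. With total reads, log2 fold changes reversed to -0.66 for Scrt1 -998, -0.82 for Scrt2 -166, -0.37, -0.35 and -0.13 for Zeb1 +95046, -16098 and -43075, -0.79 and -0.80 for Zeb2 +84987 and +645, -0.19 and -0.69 for Cdh1 +23792 and +77407, and -0.70 and -0.18 for Twist1 +10 and +20557, where each number is the listed distance in bp from the gene start. Summed log2 ratios were -0.66 (Scrt1), -0.81 (Scrt2), -1.49 (Snai1), 0.046 (Snai2), -0.60 (Zeb1), -1.03 (Zeb2), -0.45 (Cdh1) and -0.60 (Twist1). With column sums the sums were -0.064 for Scrt2 and 0.15 for Zeb1, and reversed fold changes were -0.052 (Scrt2 -166), -0.044 (Zeb2 +84987) and -0.041 (Zeb2 +645). Cyclic loess reversed Scrt2 -166 (-0.0055), Zeb2 +84987 (-0.038) and Twist1 +10 (-0.011), and a mean of at least 50 integrations reversed Scrt2 -166 (-0.041) and Zeb2 +84987 (-0.035) and gave 3 Down calls at the 8 genes. Of the 5 Down ACS, 1 has such a mean (Zeb1 +106139), and Snai1 -410 (FDR = 0.110) and Twist1 +30307 (FDR = 0.152) were newly called. None of the values reversed by column sums, cyclic loess or this filter was called. The cause was not tested.

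At an FDR under 0.05, 7177 ACS were called Up and 1945 Down, 7 and 1 at the 8 genes and 96 and 37 in the related lists, whose alternatives were added after their values were seen. Without its most integrated ACS the Snai2 sum had a log2 ratio of 0.024, also chosen after the data were seen. The lists whose sums did not overlap between groups were tried likewise, and with total reads their log2 ratios were -0.64 (repressor relatives), -0.70 (epithelial), -0.61 (mesenchymal), -0.69 (duct) and -0.66 (endothelial). When single libraries were left out, all ACS gave 7973 to 13232 Up and 3285 to 7215 Down calls, the 8 genes 6 to 12 Up and 4 to 6 Down, and the related lists 110 to 169 Up and 67 to 118 Down. The lowest counts of Up and Down over all ACS came without P10 replicate 2. Fold changes that reversed ranged from -0.028 to 0.43 (Scrt1 -998), -0.10 to 0.26 (Scrt2 -166), -0.50 to 0.020 (Scrt2 +10842), -0.044 to 0.089 (Zeb2 +84987), -0.24 to 0.21 (Zeb2 +645) and -0.011 to 0.27 (Twist1 +10), and sums from -0.026 to 0.43 (Scrt1) and -0.16 to 0.26 (Scrt2). Of the 27 named ACS, 202 of 238 values under other alternatives and 133 of 162 values with a library left out kept their direction and side of the limits.

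No paired analysis was possible, because the adult libraries came from single males and the P10 libraries from litters, and no link between them is given. With 3 libraries in a group and a median of 63.8 integrations per ACS of the 8 genes, the median SE of their log2 fold changes was 0.30, so changes of that size could not be told from none.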
